A study of Mus musculus with 10 samples.

Results

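The effect of pretreatment with Neurotropin (NTP) was examined in primary mouse hepatocytes exposed to palmitate (PA), a saturated free fatty acid. The comparison used the libraries labelled PA+NTP and PA, with 2 libraries in each group, which made up 4 of the 10 libraries of the series. Of the 18055 genes listed in any library, 14097 passed the filter on low counts and were tested, and 3958 did not. NTP is an analgesic drug prepared from the skin of rabbits inoculated with vaccinia virus, and its active components are not proteins.

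All libraries came from hepatocytes of C57BL/6 mice, the parenchymal cells of the liver, plated in DMEM with fetal bovine serum and then kept in serum-free medium before treatment. Cells of the PA group received 200 μM palmitate for 24 h without NTP. Those of the PA+NTP group received NTP (0.4 NU/mL, in NTP units) for 1 h and then the same palmitate treatment. Vehicle cells received neither agent, LA cells received 12 μM linoleate for 24 h, and LA+NTP cells received NTP for 1 h before linoleate. No group received NTP without a fatty acid, so an effect of NTP on cells outside fatty acid exposure could not be measured. The labels do not say whether the 2 libraries of a group came from separate cultures or animals, and p-values then measure only the spread between these libraries, which may be technical.

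Palmitate is a substrate of lipid synthesis and mitochondrial oxidation in hepatocytes, and an excess of saturated fatty acid is known to disturb the membrane of the endoplasmic reticulum and to set off the unfolded protein response. In that response, sensor proteins in the membrane of the endoplasmic reticulum switch on genes for chaperones, folding enzymes and components that degrade misfolded proteins. The study asked which genes, mitochondrial genes among them, accompany the effect of NTP on lipid accumulation.

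The expected counts, RSEM's estimates of reads per gene, summed to 13142588 and 39052570 in the PA libraries and to 30743849 and 31901493 in the PA+NTP libraries. Levels are given as FPKM, which is scaled for transcript length and library size, and differences are log2 fold changes of PA+NTP over PA with their standard error (SE). A gene was said to rise or fall when its adjusted p in edgeR's quasi-likelihood test was under 0.05 and its fold change was at least 1.5. Hepatocyte markers were abundant in the 4 libraries, with albumin (Alb) at 2124 and 1929 FPKM in PA and 2588 and 2333 FPKM in PA+NTP, and none of the 13 tested hepatocyte markers passed.

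NTP raised 1232 genes (8.74% of those tested) and lowered 721 (5.11%) in PA-treated hepatocytes. The median log2 fold change was 0.83 among the raised genes and -0.71 among the lowered genes, and 375 and 130 of them changed at least 2-fold. Genes that rose made up 63.1% of the genes that passed. That share depended on the scaling, since scaling by library size alone gave 1492 higher and 518 lower genes (74.2% higher) and removing a trend on transcript length gave 1017 and 981 (50.9% higher).

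The change with NTP followed the GC content of the transcripts. Among the 1402 tested genes of lowest GC content (29.8% to 41.9%), 28 rose and 308 fell, with a median log2 fold change of -0.432. Among the 1402 genes of highest GC content (58.1% to 72.5%), 440 rose and 4 fell, with a median of 0.479. The median GC content was 56.6% for the raised genes, 42.6% for the lowered genes and 50.1% for all tested genes. Over the 14020 genes for which GC content was known, it had a Spearman's rho of 0.575 with the log2 fold change, given as a description because genes share libraries and are not replicates.

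The libraries themselves differed in this respect. When each gene's log2 level in a library was set against its average over all 10 libraries, that difference had a rho with GC content of -0.468 and -0.478 in PA and of 0.403 and 0.343 in PA+NTP. It was 0.421 and 0.385 in the Vehicle libraries. The part of the GC trend in the NTP effect cannot be told apart from the treatment, since both libraries of a group lay on the same side. The main counts, and most genes named, are therefore given a second time with a fitted GC curve subtracted from each library.

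Under that correction, 482 genes were higher (3.44% of 14020) and 373 lower (2.66%), 6.1% in all, with medians of 0.85 and -0.73, and rho fell to 0.035. In both analyses 409 genes rose and 210 fell, and these are called retained genes from here on. Retained genes had a median GC content of 51.6% and 48.1%, close to that of all tested genes. A further 811 genes rose and 505 fell without GC adjustment only, with median GC contents of 58% and 41.3%. After removal only, 73 genes were higher and 163 lower. The plot of the GC deciles shows how the counts evened out across the range.

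**Figure D1:**
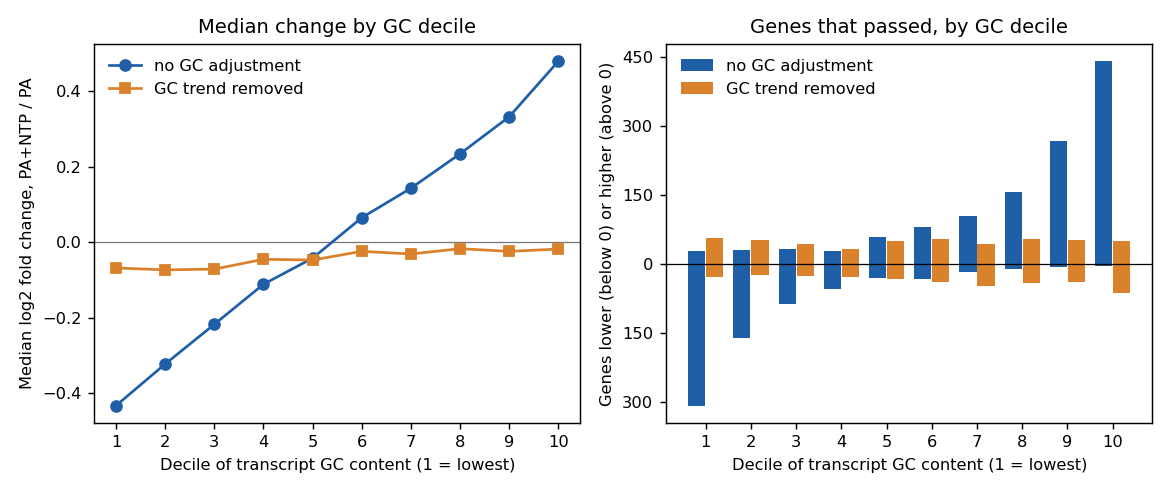
Left, median log2 fold change of PA+NTP over PA in 10 groups of 1402 tested genes ordered by transcript GC content, without GC adjustment (circles) and with the GC trend removed (squares). Right, number of genes that were higher (above 0) or lower (below 0) in each decile. The medians climb from -0.432 to 0.479 without adjustment and lie between -0.073 and -0.017 after it.

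Several chaperones of the endoplasmic reticulum fell with NTP both with and without the GC trend. Of the 27 genes listed for the unfolded protein response, all tested, 6 fell and 2 rose, beside 5.11% and 8.74% of all tested genes. After GC removal, 6 were lower and 1 higher, and 5 of the lowered genes were the same in both analyses. The median log2 fold change of the list was -0.44 (all tested genes 0.01), and it became -0.31 (all tested genes -0.04). When any of the 10 libraries was left out, the median lay between -0.45 and -0.42. On adjusted p alone, without a fold threshold, 20 of the 27 genes were lower and 2 higher, beside 23% and 21.7% of all tested genes. After GC removal 17 were lower and 2 higher on adjusted p alone, beside 17.3% and 10.3% of all tested genes.

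Hspa5 encodes BiP, the central chaperone of the endoplasmic reticulum, and had 1184 and 1207 FPKM in the PA libraries and 731 and 690 FPKM in the PA+NTP libraries. Both PA+NTP libraries lay below both PA libraries, and the log2 fold change was -0.81 (SE 0.06, adjusted p = 3.88e-07), or -0.75 with the GC trend removed. Vehicle cells had 593 and 558 FPKM. Hsp90b1, the chaperone GRP94, went from 666 and 647 FPKM to 390 and 365 FPKM, a log2 fold change of -0.86 (SE 0.06, adjusted p = 2.42e-07) and of -0.64 after GC removal. Manf, a secreted stress protein of the endoplasmic reticulum, had 98.2 and 90.1 FPKM in PA and 51.8 and 57.9 FPKM in PA+NTP, with a log2 fold change of -0.84 (SE 0.07, adjusted p = 1.02e-06), or -0.92 after GC removal. These 3 genes were also lower with NTP in linoleate-treated cells, with log2 fold changes of -0.84, -0.97 and -0.66. Exons of Hsp90b1 overlap 1810014B01Rik and those of Manf overlap Dcaf1, among others, on the opposite strand, so the source of their reads is uncertain.

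Sdf2l1, part of a chaperone complex with BiP, fell from 21.7 and 23.9 FPKM to 14.8 and 12.5 FPKM. Dnajb11, a cochaperone of BiP, fell from 68.7 and 70.7 FPKM to 46.3 and 45.04 FPKM. Their log2 fold changes were -0.81 and -0.61 without and -1.15 and -0.68 with GC removal, so the adjustment moved the GC-rich Sdf2l1 (56.7% GC) further down. Ero1b, an oxidase that supplies disulfide bonds, passed only without GC adjustment (-0.68), and Creld2 only with it (-0.79).

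The sensors of the response did not pass. Ern1 had a log2 fold change of 0.08, Eif2ak3 of -0.12 and Atf6 of -0.18, and the transcription factor Xbp1 of 0.06, and none of the 4 passed. Xbp1 had 68.8 and 68.3 FPKM in PA and 76.7 and 72.3 FPKM in PA+NTP. FPKM is summed over transcripts, so splicing of Xbp1 mRNA was not measured. Calr, a calcium-binding chaperone, stood at 942 and 904 FPKM in PA and 944 and 977 FPKM in PA+NTP. Syvn1, the ubiquitin ligase that marks misfolded proteins of the endoplasmic reticulum, rose from 11.3 and 12.6 FPKM to 26.4 and 24.0 FPKM. The log2 fold change of Syvn1, 0.97 (SE 0.08, adjusted p = 7.83e-07), became 0.57 after GC removal, below the fold threshold, and its exons overlap those of Mrpl49 on the opposite strand. Sec61b, the other raised gene of the list, went from 48.7 and 50.9 FPKM to 83.2 and 103 FPKM. Its log2 fold change of 0.84 was retained at 0.74, but it shares 54.5% of its 31-base sequences with other genes.

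Cdnf, a paralog of Manf that also resides in the endoplasmic reticulum, was among the largest falls. It had 11.2 and 12.1 FPKM in PA and 1.27 and 1.24 FPKM in PA+NTP, and the groups were far apart compared with the spread within each. The log2 fold change was -3.27 (SE 0.13, adjusted p = 1.62e-09), and -3.12 after GC removal. Vehicle cells had 0.98 and 0.90 FPKM, LA cells 12.3 and 13.7 FPKM and LA+NTP cells 1.15 and 1.48 FPKM.

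**Figure D2:**
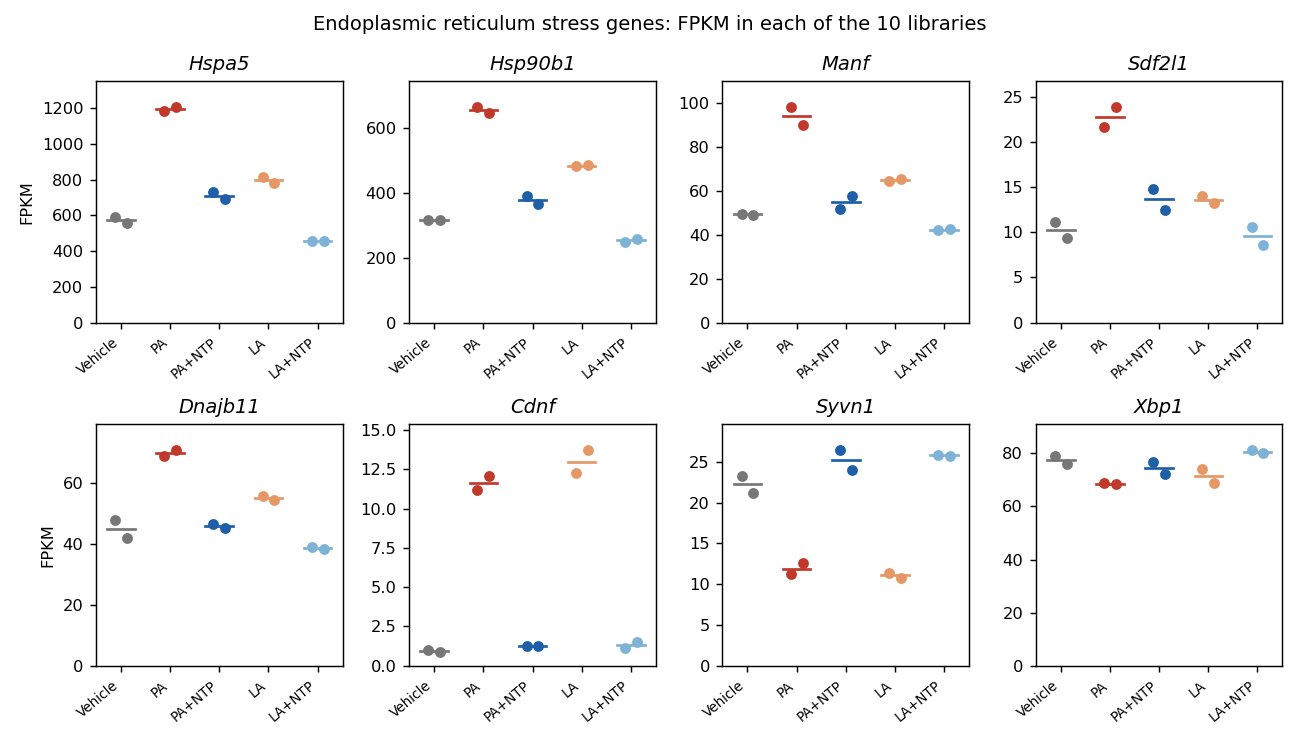
FPKM of 8 genes of the endoplasmic reticulum in each of the 10 libraries (points) with the mean of each group (short lines), each panel starting at 0. Hspa5, Hsp90b1, Manf, Sdf2l1, Dnajb11 and Cdnf are lower in both PA+NTP libraries than in both PA libraries, Syvn1 is higher, and Xbp1 differs little.

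Promoters of 3 of the 5 retained lowered genes are shown because endoplasmic reticulum stress response elements (ERSE) in such promoters are known to bind the ATF6 and XBP1 factors. The windows run from 250 bases before to 50 bases after the start of each gene in the RefSeq table of GRCm38.p6, printed 5′ to 3′ on the strand of the gene. Capitals mark the fixed letters of an ERSE (CCAAT, 9 bases of any kind and CCACG) or of an ERSE-II (ATTGG, 1 base of any kind and CCACG), which were searched on both strands and do not overlap each other in these windows. The windows lie at chr2:34771840-34772139 (plus strand) for Hspa5, chr10:86705395-86705694 (minus strand) for Hsp90b1 and chr16:22857595-22857894 (plus strand) for Dnajb11.
Hspa5: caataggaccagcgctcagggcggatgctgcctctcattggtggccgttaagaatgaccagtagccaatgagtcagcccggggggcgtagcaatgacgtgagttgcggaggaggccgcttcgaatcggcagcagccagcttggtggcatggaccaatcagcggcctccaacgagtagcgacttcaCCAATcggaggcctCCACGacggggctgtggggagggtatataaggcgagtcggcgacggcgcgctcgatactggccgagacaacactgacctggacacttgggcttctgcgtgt
Hsp90b1: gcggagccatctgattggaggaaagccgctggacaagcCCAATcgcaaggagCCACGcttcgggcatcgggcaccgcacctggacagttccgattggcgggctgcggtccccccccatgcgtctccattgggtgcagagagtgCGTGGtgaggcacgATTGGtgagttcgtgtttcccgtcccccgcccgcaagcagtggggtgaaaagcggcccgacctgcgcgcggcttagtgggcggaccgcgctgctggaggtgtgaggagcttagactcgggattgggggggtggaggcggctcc
Dnajb11: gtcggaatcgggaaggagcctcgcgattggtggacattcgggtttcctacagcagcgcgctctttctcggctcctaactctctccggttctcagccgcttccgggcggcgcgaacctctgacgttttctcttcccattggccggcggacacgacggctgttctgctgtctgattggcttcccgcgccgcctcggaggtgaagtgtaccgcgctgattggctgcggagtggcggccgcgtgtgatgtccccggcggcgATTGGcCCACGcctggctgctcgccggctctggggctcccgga
Hspa5 holds 1 ERSE at bases 186 to 204 of its window. Hsp90b1 holds 2, at bases 39 to 57 and, on the opposite strand, at bases 144 to 162. Dnajb11 holds 1 ERSE-II at bases 258 to 268, just after the start of the gene.

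Of the 27 listed genes, 24 had a promoter in the table and 11 of these (45.8%) held an ERSE or an ERSE-II, beside 0.181% of the 27025 genes with a promoter. Promoters on chromosome 18 were not searched and are left out of all these promoter counts. The list was made from known genes of this response, so the share describes the list and not the effect of NTP. Members with a match ranged in log2 fold change from 0.97 (Syvn1) to -0.86 (Hsp90b1), with Calr at 0.00. The windows of Sdf2l1 and Cdnf held neither motif, which says only that these letters are not in those windows. A match is not a measured binding site. Among the 154 retained lowered genes with a promoter, 4 (2.6%) held either motif. Of these, 3 were Hspa5, Hsp90b1 and Dnajb11 from the same list, so this share largely repeats the list. Among 315 retained raised genes 2 (0.635%) did, beside 29 (0.261%) of the 11126 tested genes with a promoter.

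Of 22 listed heat shock genes, 4 fell (18.2%) and 2 rose (9.09%), beside 5.11% and 8.74% of all tested genes. The median log2 fold change was -0.31 (-0.27 after GC removal). On adjusted p alone 11 of the 22 were lower and 6 higher, beside 23% and 21.7% of all tested genes. After GC removal 11 were lower and 3 higher on adjusted p alone, beside 17.3% and 10.3%. Chordc1, a cochaperone of HSP90, went from 65.1 and 67.1 FPKM to 34.4 and 39.1 FPKM, and its log2 fold change of -0.91 (SE 0.07, adjusted p = 6.67e-07) shrank to -0.35 after GC removal. Hsf1, the master factor of the heat shock response, rose from 11.1 and 10.99 FPKM to 19.9 and 19.4 FPKM (log2 fold change 0.78), and 0.40 remained after GC removal. Hspd1 and Hsp90aa1 also fell but share 55.8% and 62.9% of their 31-base sequences with other genes, so their counts are uncertain.

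For the integrated stress response, 2 of 32 listed genes rose and 2 fell (6.25% each), beside 8.74% and 5.11% of all tested genes. The list median moved from -0.11 to -0.32 with GC removal. On adjusted p alone 14 of the 32 were lower and 5 higher, beside 23% and 21.7% of all tested genes. After GC removal 19 were lower and 1 higher on adjusted p alone, beside 17.3% and 10.3%. Cebpb, a stress-responsive transcription factor of hepatocytes, fell by 0.68 on the log2 scale, from 17.2 and 21.9 FPKM to 14.4 and 11.5 FPKM. After GC removal it was lower by a log2 fold change of -1.22, and Ddit3 (CHOP) and Trib3 were then lower too, at -0.67 and -0.64 against -0.40 and -0.21 before. Gdf15, a secreted stress signal, rose from 14.8 and 18.2 FPKM to 28.2 and 29.9 FPKM (log2 fold change 0.73), and stood at 0.18 after GC removal.

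Among 39 proteasome subunits 4 fell (10.3%) and 1 rose (2.56%), beside 5.11% and 8.74% of all tested genes. The list median was -0.20 (-0.18 after GC removal). Psmc6, an ATPase of the regulatory particle, had 151 and 157 FPKM in PA and 89.0 and 92.9 FPKM in PA+NTP, and its log2 fold change of -0.82 became -0.33 after removal. No proteasome gene was retained. On adjusted p alone 22 of the 39 subunits were lower and 6 higher, beside 23% and 21.7% of all tested genes. After GC removal 17 were lower and 1 higher on adjusted p alone, beside 17.3% and 10.3%. Of 38 autophagy genes 5 fell (13.2%) and 4 rose (10.5%), and 4 of the lowered genes were retained. Among these, Atg3, the enzyme that attaches LC3 to lipid, went from 32.4 and 34.7 FPKM to 19.3 and 20.8 FPKM (log2 fold change -0.80, -0.63 after removal). The raised ones, with Ulk1 (0.82) and Tfeb (0.79) among them, had GC contents of 57.5% to 61.8% and none was retained. On adjusted p alone 16 autophagy genes were lower and 9 higher, and 15 and 4 after GC removal.

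Among mitochondrial genes, some subunits of the respiratory chain rose and others fell. Of the 78 tested nuclear genes for the respiratory chain and ATP synthase, 8 rose and 3 fell, beside 8.74% and 5.11% of all tested genes, and the list median was -0.03 (-0.10 after GC removal, 0.03 under library-size scaling). Retained genes were 4 raised and 2 lowered. Uqcr10, a small subunit of complex III, had 62.3 and 65.8 FPKM in PA and 129 and 155 FPKM in PA+NTP, a log2 fold change of 1.08 (SE 0.11, adjusted p = 5.34e-06) and of 0.81 after removal. Uqcrh, the hinge protein of the same complex, moved in the opposite direction, from 389 and 345 FPKM to 229 and 230 FPKM (log2 fold change -0.73, SE 0.07, adjusted p = 1.77e-06), and -0.76 after removal.

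Of the complex IV genes that the study names, Cox8a had 98.8 and 109 FPKM in PA and 196 and 241 FPKM in PA+NTP. Its log2 fold change was 1.01 (SE 0.09, adjusted p = 1.88e-06), and with the GC trend removed it was 0.57, just below the fold threshold. Cox7c rose from 199 and 171 FPKM to 422 and 487 FPKM, with a log2 fold change of 1.25 (SE 0.10) that GC removal left at 1.34. Since 55.7% of the 31-base sequences of Cox7c occur in transcripts of other genes, its counts are uncertain. Ndufs1, the largest subunit of complex I, fell from 48.7 and 47.2 FPKM to 32.1 and 32.1 FPKM (log2 fold change -0.63), and stood at -0.47 after removal, below the fold threshold.

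Ppargc1b, the coactivator PGC-1β of mitochondrial biogenesis, was a low-level gene with 0.72 and 0.88 FPKM in PA and 1.71 and 1.66 FPKM in PA+NTP. The log2 fold change was 0.99 (SE 0.20, adjusted p = 0.00094). It became 0.58 after GC removal, with an adjusted p of 0.0384 and a fold below 1.5. Of the 24 listed regulators of mitochondrial biogenesis, 4 rose (16.7%) and none fell, beside 8.74% and 5.11% of all tested genes. None was retained. Esrra, a nuclear receptor that works with PGC-1 coactivators, went from 6.34 and 7.86 FPKM to 12.4 and 12.6 FPKM (log2 fold change 0.73), with 0.17 after removal. The median of the list was -0.07.

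Ogg1, which excises oxidized guanine from nuclear and mitochondrial DNA, had 5.75 and 6.25 FPKM in PA and 11.3 and 13.9 FPKM in PA+NTP. It rose by a log2 fold change of 1.00 (SE 0.13, adjusted p = 2.37e-05) and was retained at 0.76. Its exons overlap those of Camk1 on the opposite strand, and without strand information reads of the 2 genes cannot be told apart. Of the 21 base excision repair genes tested, 2 rose and 2 fell (9.52% each), all retained. Of all tested genes 8.74% rose and 5.11% fell. Mbd4 rose (0.67), and Neil2 (-0.59) and Aptx (-0.71) fell.

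Mitochondrial ribosomal proteins gave 7 raised (8.97%) and no lowered genes of 78, beside 8.74% and 5.11% of all tested genes. The list median of -0.02 became 0.03 under library-size scaling. On adjusted p alone 19 were higher and 21 lower, and 11 and 24 after GC removal. The same shares of all tested genes were 21.7% and 23%, and 10.3% and 17.3% after GC removal. Mrpl55 had 14.5 and 14.1 FPKM in PA and 28.3 and 34.1 FPKM in PA+NTP and was retained (log2 fold change 1.08, 0.91 after removal). For mitochondrial fusion, fission and mitophagy, 2 of 22 genes fell (9.09%), none rose and none was retained. These were Mfn1, an outer membrane fusion protein, from 28.5 and 28.2 FPKM to 19.9 and 17.9 FPKM, and Yme1l1, an inner membrane protease, from 59.9 and 60.9 FPKM to 38.9 and 37.1 FPKM. Their log2 fold changes of -0.64 and -0.73 became -0.52 and -0.29 after removal.

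**Figure D3:**
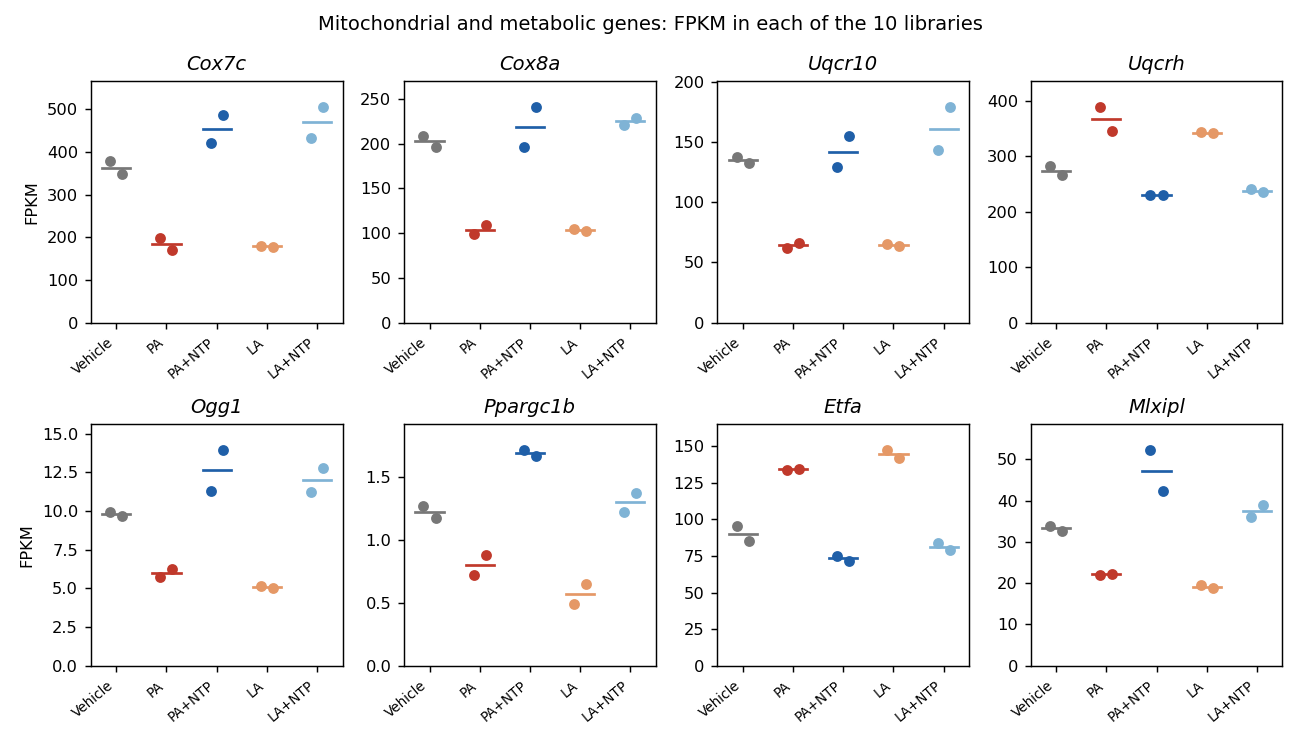
FPKM of 8 mitochondrial and metabolic genes in each of the 10 libraries (points) with the mean of each group (short lines), each panel starting at 0. Cox7c, Cox8a, Uqcr10, Ogg1, Ppargc1b and Mlxipl are higher in both PA+NTP libraries than in both PA libraries, and Uqcrh and Etfa are lower.

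Of 31 fatty acid oxidation genes 2 fell (6.45%) and 1 rose (3.23%), beside 5.11% and 8.74% of all tested genes. The median log2 fold change was -0.21 in both analyses. On adjusted p alone 15 were lower and 4 higher, beside 23% and 21.7% of all tested genes. After GC removal 14 were lower and 1 higher on adjusted p alone, beside 17.3% and 10.3%. Etfa, which carries electrons from acyl-CoA dehydrogenases to the respiratory chain, had 134 and 135 FPKM in PA and 75.2 and 71.8 FPKM in PA+NTP. The log2 fold change was -0.93 (SE 0.07, adjusted p = 3.54e-07) and was retained at -0.76. Acadl, the long-chain acyl-CoA dehydrogenase, fell from 108 and 109 FPKM to 69.4 and 78.6 FPKM (log2 fold change -0.61), and -0.45 remained after removal. Abcd2, a peroxisomal transporter of long-chain acyl-CoA, rose from 0.51 and 0.66 FPKM to 1.42 and 1.05 FPKM (log2 fold change 0.97) and was retained at 1.27. None of the 25 PPARα targets and none of the 5 genes of ketone body synthesis passed in either analysis. Cpt1a, the entry step of mitochondrial oxidation, belongs to those targets.

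Among fatty acid uptake and activation genes, 3 of 20 fell (15%) and 1 rose (5%), beside 5.11% and 8.74% of all tested genes. None was retained. Cd36, a fatty acid translocase, had 38.6 and 40.7 FPKM in PA and 25.4 and 24.1 FPKM in PA+NTP, and its log2 fold change of -0.74 (SE 0.06) became -0.32 after GC removal. Acsl4, an acyl-CoA synthetase, went from 63.5 and 66.3 FPKM to 41.3 and 36.6 FPKM (log2 fold change -0.79, -0.40 after removal). Both transcripts have a low GC content (38.4% and 39%).

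Of the lipogenic genes 3 of 24 rose (12.5%) and 1 fell (4.17%), beside 8.74% and 5.11% of all tested genes. Mlxipl alone was retained. Mlxipl encodes ChREBP, which switches on lipogenic genes in response to glucose, and had 21.95 and 22.3 FPKM in PA and 52.2 and 42.3 FPKM in PA+NTP. Its log2 fold change was 1.03 (SE 0.08, adjusted p = 7.43e-07), with 0.70 after removal. Fads2, the Δ6 desaturase of polyunsaturated fatty acid synthesis, rose from 33.5 and 40.4 FPKM to 73.1 and 71.8 FPKM (log2 fold change 0.90) and was retained at 0.66, the only one of 14 desaturase and elongase genes to pass. Of 27 cholesterol genes and 23 lipid droplet genes, 1 each rose (3.7% and 4.35%) and none fell, and neither was retained.

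Apolipoproteins had a list median of 0.33 (0.22 after removal). Of 14 genes 4 rose (28.6%) and none fell, beside 8.74% and 5.11% of all tested genes. Apoc3, an inhibitor of triglyceride clearance, had 45.04 and 31.3 FPKM in PA and 86.1 and 62.8 FPKM in PA+NTP (log2 fold change 0.96, SE 0.15, adjusted p = 0.000158) and was retained at 0.71. Apoc4 (0.73) and Apof (0.67) rose without GC adjustment only. Apoc2 rose too (1.28) but shares 78.8% of its 31-base sequences with other transcripts.

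Major urinary proteins are a family of nearly identical lipocalins of the mouse liver. Of 18 tested genes 9 fell (50%) and 2 rose (11.1%), beside 5.11% and 8.74% of all tested genes. Their exons are so alike that RSEM's division of reads between them is uncertain, and 6 lowered and 2 raised genes were retained. Mup11 and Mup12 rose, whereas Mup1 fell by 1.77 on the log2 scale. Mup1, Mup11 and Mup12 each share over 90% of their 31-base sequences with other genes. Summed over the 21 listed genes, the family had 25600 and 26000 FPKM in PA and 16000 and 16800 FPKM in PA+NTP, beside 21300 and 19900 FPKM in Vehicle.

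The list medians of the plot by list had no test, and the members were counted against 8.74% higher and 5.11% lower genes overall. Lists above the median of all tested genes without adjustment often moved toward it after GC removal, such as the collagens, laminins, integrins and cytoskeleton (0.24 to -0.02) and the hepatocyte transcription factors (0.20 to -0.01). Splicing factors moved from -0.29 to -0.12 and zinc finger genes from -0.08 to 0.03. The urea cycle and amino acid breakdown moved from -0.03 (0.03 under library-size scaling) to -0.27.

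**Figure D4:**
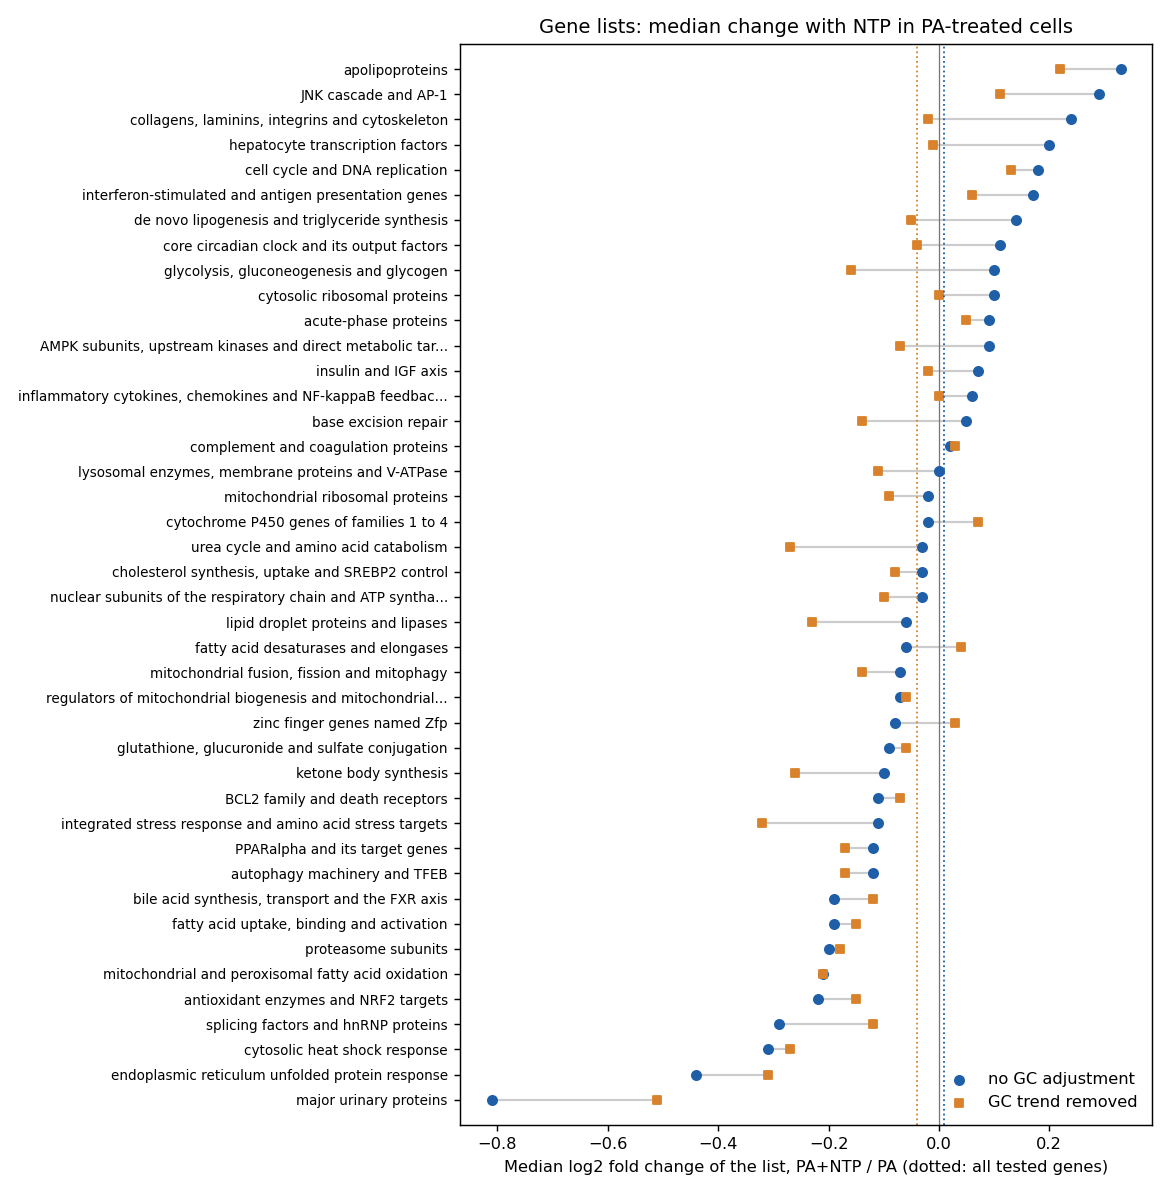
Median log2 fold change of PA+NTP over PA for each gene list other than the cell type markers, without GC adjustment (circles) and with the GC trend removed (squares), with dotted lines at the median of all tested genes (0.01 and -0.04). The major urinary proteins (-0.81) and the unfolded protein response (-0.44) lie farthest left of the lists plotted, and the apolipoproteins (0.33) farthest right.

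In detoxification, 8 of 51 cytochrome P450 genes rose (15.7%) and 5 fell (9.8%), beside 8.74% and 5.11% of all tested genes. Of these P450 genes 2 raised and 1 lowered were retained. Cyp3a13 went from 63.7 and 71.0 FPKM to 44.0 and 42.2 FPKM (log2 fold change -0.70, -0.43 after removal). Of 42 conjugating enzymes 7 fell (16.7%) and 3 rose (7.14%). None of the lowered ones was retained, among them Ugt2b34 (170 and 176 FPKM to 104 and 90.9 FPKM) and Sult1d1 (6.51 and 6.52 FPKM to 3.78 and 3.03 FPKM). The log2 fold change of Ugt2b34 went from -0.89 to -0.58 with GC removal and that of Sult1d1 from -0.995 to -0.27. Among 27 antioxidant and NRF2 target genes, Prdx1 fell and Osgin1 rose (3.7% each), and neither was retained. After GC removal only, Gsr (-0.60), Srxn1 (-0.63) and Prdx5 (-0.65) were lower, and none was higher. On adjusted p alone 14 of the 27 were lower and 5 higher, beside 23% and 21.7% of all tested genes. After GC removal 11 were lower and 1 higher on adjusted p alone, beside 17.3% and 10.3%. Fth1, the heavy chain of the iron store ferritin, was among the most abundant lowered genes, with 3733 and 3816 FPKM in PA and 2387 and 2379 FPKM in PA+NTP. It fell by 0.72 on the log2 scale (SE 0.08, adjusted p = 5.48e-06), and by 0.93 with the GC trend removed.

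Glucose and amino acid metabolism gave few retained genes. Ugp2, which makes UDP-glucose for glycogen, fell from 72.5 and 68.9 FPKM to 37.6 and 36.7 FPKM (log2 fold change -0.99, SE 0.06, adjusted p = 1.08e-07), with -0.60 after removal. Ugdh, which oxidizes UDP-glucose for glucuronidation, fell from 309 and 330 FPKM to 177 and 194 FPKM (log2 fold change -0.85, -0.74 after removal). Tdo2, the first enzyme of tryptophan breakdown, had 36.8 and 34.0 FPKM in PA and 20.9 and 13.2 FPKM in PA+NTP (log2 fold change -1.11, -0.75 after removal). Slc2a1, the glucose transporter GLUT1, rose from 23.1 and 24.2 FPKM to 39.1 and 39.5 FPKM, and its log2 fold change of 0.67 became 0.45.

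In the kinase and transcription factor lists, most raised genes were GC-rich and not retained. AMPK and its targets gave 2 raised genes of 17 (11.8%), beside 8.74% of all tested genes. These were Ulk1 and Strada, neither of them a subunit of AMPK. The JNK and AP-1 list gave 2 of 21 (9.52%), Map3k11 and Fosb, and its median was 0.29 (0.11 after removal). Fosb, an AP-1 subunit, went from 0.20 and 0.17 FPKM to 0.65 and 0.76 FPKM (log2 fold change 1.92, SE 0.28) and was retained at 1.63. Irs2, an adaptor of the insulin receptor, rose from 0.84 and 0.92 FPKM to 1.84 and 1.70 FPKM (log2 fold change 0.93) and was retained at 0.60. Per1, a repressor of the circadian clock, had 2.72 and 2.97 FPKM in PA and 5.40 and 6.62 FPKM in PA+NTP, and 0.53 of its log2 fold change of 1.01 remained after removal.

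Among 39 inflammatory, 26 acute-phase and 37 interferon-stimulated genes, 3, 2 and 4 rose without GC adjustment and none fell. The raised shares of 7.69%, 7.69% and 10.8% lay near the 8.74% of all tested genes. Retained rises numbered 1, 2 and 0, and 1 acute-phase gene was lower after GC removal only. On adjusted p alone 11, 4 and 8 were higher and 4, 3 and 3 lower, beside 21.7% and 23% of all tested genes. Lcn2, an iron-scavenging acute-phase protein, had 181 and 180 FPKM in PA and 375 and 288 FPKM in PA+NTP. It was retained, with log2 fold changes of 0.82 (SE 0.11, adjusted p = 3.27e-05) and 0.59. Rela, a subunit of NF-κB, and Bcl3, an atypical inhibitor of NF-κB, rose by log2 fold changes of 0.75 and 0.97, with 0.26 and 0.39 left after removal. Oasl1 went from 21.0 and 19.2 FPKM to 37.2 and 30.9 FPKM (log2 fold change 0.71), with 0.40 left after removal.

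Ribosomal protein genes gave 9 raised (11.2%) and no lowered genes of 80, beside 8.74% and 5.11% of all tested genes. Of the raised genes 5 were retained, and all 9 share more than 20% of their 31-base sequences with other genes. On adjusted p alone 32 were higher and 15 lower, and 13 higher and 23 lower after GC removal. All tested genes moved too, from 21.7% higher and 23% lower to 10.3% and 17.3%. Splicing factors gave 5 lowered (8.62%) and 2 raised (3.45%) of 58, beside 5.11% and 8.74% of all tested genes. On adjusted p alone 33 splicing factors were lower and 10 higher, and 21 and 10 after GC removal. Srsf1 fell from 46.0 and 48.6 FPKM to 31.3 and 30.6 FPKM (log2 fold change -0.67, -0.37 after removal). Of 362 Zfp genes 32 rose (8.84%) and 37 fell (10.2%), and 11 and 2 were retained. Zfp36l1, an RNA-binding protein that promotes mRNA decay, rose from 136 and 143 FPKM to 243 and 272 FPKM with nearly the same log2 fold change in both analyses (0.83 and 0.84).

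Abundant genes also rose and were retained. Sprr1a, a protein of the cornified envelope that is also made under stress, had 577 and 701 FPKM in PA and 1559 and 1982 FPKM in PA+NTP, where Vehicle had 2463 and 2458 FPKM. Its log2 fold change was 1.41 (SE 0.13, adjusted p = 2.11e-06), or 1.14 after removal. Fn1, the matrix protein fibronectin, went from 159 and 147 FPKM to 295 and 269 FPKM (log2 fold change 0.82, 0.61 after removal). Ly6e, a surface protein of the Ly6 family, went from 199 and 177 FPKM to 396 and 351 FPKM (log2 fold change 0.92, 0.66 after removal).

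The most abundant genes that passed without GC adjustment only were Tle5, Osgin1 and Mt2 among the raised and Pgrmc1, Hspa9 and Prdx1 among the lowered. Tle5, a corepressor, had 206 and 218 FPKM in PA and 371 and 385 FPKM in PA+NTP, a log2 fold change of 0.78 that became 0.26. Prdx1, a peroxiredoxin, had 1520 and 1691 FPKM in PA and 1014 and 1132 FPKM in PA+NTP, a log2 fold change of -0.64 that became -0.36. Hspa9, the mitochondrial HSP70, had 621 and 630 FPKM in PA and 404 and 433 FPKM in PA+NTP, and its -0.64 became -0.51.

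The largest changes were in genes of low level. Cd8b1, the β chain of the T-cell coreceptor CD8, had 0.23 and 0.11 FPKM in PA and 6.96 and 6.02 FPKM in PA+NTP (log2 fold change 5.47, SE 0.29, adjusted p = 3.48e-08). Vehicle cells had 4.47 and 4.34 FPKM. Of 13 lymphocyte markers, 3 had enough counts to be tested and Cd8b1 alone passed, while 4 were at 0 in all PA and PA+NTP libraries. Npy1r, a receptor of neuropeptide Y, had 1.16 and 1.48 FPKM in PA and 8.43 and 8.99 FPKM in PA+NTP (log2 fold change 2.61, SE 0.12, adjusted p = 8.32e-09). Both were retained, at 5.40 and 2.85, and Vehicle had 7.97 and 8.41 FPKM of Npy1r.

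Among the 12 largest retained rises were also Tctex1d4 (log2 fold change 4.03), Ttc16 (2.70), Bricd5 (2.43), Enho (2.40) and Ube2c (2.28), whose exons each overlap a gene on the opposite strand, and Selplg (2.68), Gm14461 (2.09), Gm20172 (1.90) and Smco1 (1.84). Ube2c, a ubiquitin-conjugating enzyme of mitosis, overlaps Tnnc2. The counting is not stated to use strand, and for the 41 of 112 named genes with an opposite-strand neighbour in their exons the source of the reads is uncertain.

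Among the largest falls, Lrrc17 had 2.05 and 2.45 FPKM in PA and 0.03 and 0.14 FPKM in PA+NTP (log2 fold change -4.75, SE 0.41), and its exons overlap Fbxl13. Lepr, the leptin receptor, went from 1.75 and 1.91 FPKM to 0.50 and 0.36 FPKM (log2 fold change -2.16, SE 0.26), with -1.95 after removal. Omd (-2.07), Rtl1 (-2.93), Cx3cr1 (-1.76), Dnase1l3 (-1.41), Cd22 (-1.36), 4921517D22Rik (-1.34) and Mmp13 (-1.20) followed, all retained. Exons of Rtl1 overlap microRNA genes, and those of Cx3cr1, Cd22 and 4921517D22Rik overlap a gene on the opposite strand.

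Myl2 and Tnnt2, which encode the ventricular myosin light chain and cardiac troponin T, were also among the largest falls. Myl2 had 12 and 41 counts in the PA libraries and 0 in both PA+NTP libraries, which makes PA at least 10.2-fold higher with a floor of 3 counts per library. Tnnt2 went from 2.21 and 1.58 FPKM to 0.46 and 0.39 FPKM (log2 fold change -2.21, SE 0.41, adjusted p = 0.000572), with -2.47 after GC removal. After these values had been seen, 16 heart and striated muscle genes were listed, of which 13 were tested, 8 fell and 1 rose. Myh6, the α myosin heavy chain of the heart, had 0.72 and 0.88 FPKM in PA, 0 in PA+NTP and Vehicle, and 0.11 and 0.08 FPKM in LA. Myh7 and Ckm were higher in LA than in PA, with Myh7 at 0.16 and 0.17 FPKM against 0.03 and 0.09 FPKM and Ckm at 0.29 and 0.36 FPKM against 0.05 and 0.09 FPKM. Actc1 (cardiac α-actin) went the other way, from 10.0 and 8.21 FPKM to 17.6 and 14.4 FPKM. All 16 genes together summed to 26.9 and 22.6 FPKM in PA and 29.2 and 23.1 FPKM in PA+NTP, mostly from Actc1 and Tnnc1. Myl2, Myl3, Myh6, Mb, Pln and Tnnt2, picked after their values were seen, summed to 6.34 and 6.26 FPKM in PA. Their sums were 0.47 and 0.40 FPKM in PA+NTP, 0.55 and 0.47 FPKM in Vehicle and 0.59 and 0.61 FPKM in LA. Whether RNA of heart tissue was present in the PA cultures was not tested.

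Some markers of other liver cells rose. Of 13 tested markers of Kupffer cells, the liver macrophages, C1qc, Fcer1g and Cd5l rose and none fell, and Cd5l was not retained. The 15 listed genes summed to 224 and 258 FPKM in PA and 289 and 322 FPKM in PA+NTP, beside 226 and 228 FPKM in Vehicle, and Cd68 made up most of these sums (195 and 232 FPKM in PA, 259 and 287 FPKM in PA+NTP). Cd68 did not pass (log2 fold change 0.29, 0.09 after GC removal), and Clec4f, Timd4 and Vsig4, which define Kupffer cells, were at or under 0.20 FPKM in all 4 libraries. C1qc, a complement component, went from 0.22 and 0.27 FPKM to 1.03 and 0.87 FPKM (log2 fold change 1.83, SE 0.42) and was retained at 1.44. Stellate cell markers summed to 49.4 and 45 FPKM in PA and 55.2 and 56.5 FPKM in PA+NTP. Of 14 tested, 2 rose (Col1a1 and Pdgfrb, 14.3%). Endothelial markers summed to 47.0 and 52.6 FPKM in PA and 50 and 56.8 FPKM in PA+NTP. Of 13 tested, 1 rose (Eng, 7.69%), while 9 had a log2 fold change below 0 and the list median was -0.17. Of all tested genes 8.74% rose, and none of Col1a1, Pdgfrb and Eng was retained. Cholangiocyte markers summed to 609 and 501 FPKM and 813 and 687 FPKM, most of which was Spp1 (521 and 398 FPKM in PA, 691 and 556 FPKM in PA+NTP), with Sox9 raised and retained, and hepatocyte markers to 8070 and 7440 FPKM and 10200 and 8620 FPKM. Their part in the results above was not tested, and in bulk RNA a change in the number of such cells cannot be told apart from a change in RNA per cell.

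The NTP effect in linoleate-treated cells, which shares no library with that in PA-treated cells, went the same way for most of these genes. NTP raised 1651 genes (11.7%) and lowered 1067 (7.57%) there. Raised genes common to both comparisons numbered 947, which is 76.9% of the list for PA and 57.4% of the list for LA, and common lowered genes numbered 527 (73.1% and 49.4%). With the GC trend removed, 276 raised genes (57.3% and 62.3%) and 178 lowered genes (47.7% and 52%) were common. The log2 fold changes of the 2 comparisons had an r of 0.669 across the tested genes and 0.586 after GC removal, as a description across genes. The GC trend had a rho of 0.677 with the effect under LA, so the trend was shared as well.

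Of the 112 genes that the naming rule gave, 99 also passed in the same direction under LA. Tested as an interaction of NTP with the fatty acid, the effects differed for 0 genes in edgeR, where 1029 had an unadjusted p under 0.05, and for 5 in DESeq2. After GC removal the counts were 0, with 625 at an unadjusted p under 0.05, and 1. Tnnt2 had log2 fold changes of -2.21 under PA and 0.71 under LA, and Bricd5 of 2.43 and 0.64. A difference that missed the threshold does not show that the effects were alike.

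**Figure D5:**
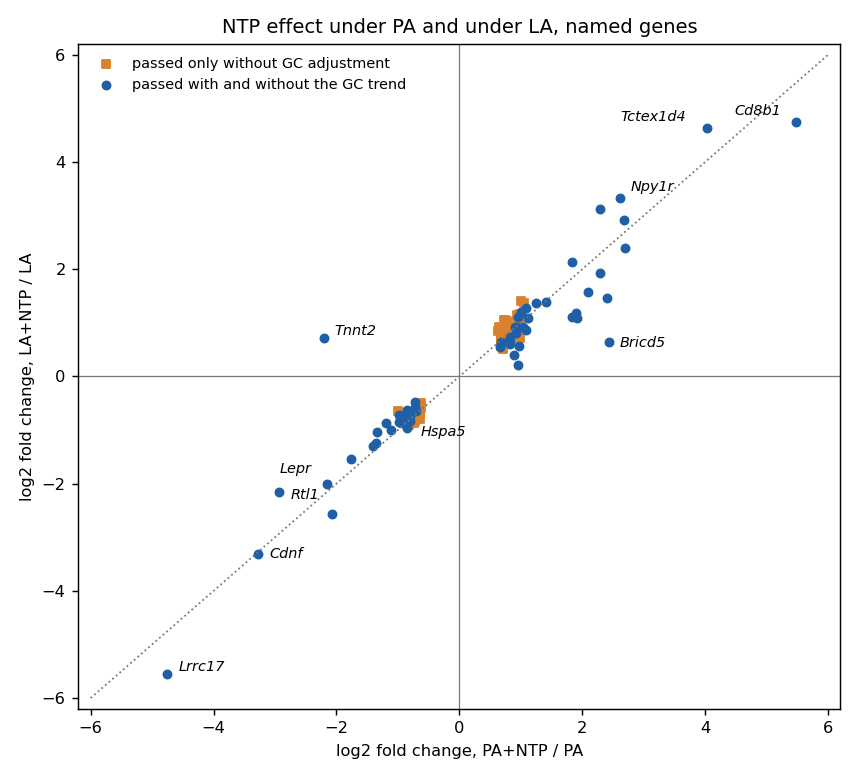
Log2 fold change with NTP under PA (horizontal axis) and under LA (vertical axis) for 111 named genes, with the dotted line of equal effects; Myl2, which has no counts in PA+NTP, is left out. Circles passed with and without the GC trend and squares without adjustment only, and 61 of the 112 named genes were of the first kind.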

How the data were processed

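Total RNA of primary hepatocytes was sequenced in 10 libraries, and the members of the comparison and the gene lists were chosen with earlier results of these data known. Per the labels and the methods, the authors aligned reads with HISAT and Bowtie2 and quantified genes with RSEM, and mm10 is the build in the submitters' processing notes. Versions, annotation and library strandedness are not given in the sources read. The deposited expected counts are estimated counts without normalization between libraries, and the deposited FPKM were scaled by the authors for length and library size. Genes under an FPKM of 0.01 are not listed and were taken as 0. No gene of the mitochondrial genome is among those analysed here.

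Of 18055 gene IDs, 17998 were matched to RefSeq (GRCm38.p6) by ID and 11 by accession, and 99.3% had a GC content from GENCODE M21 transcripts. Rounded expected counts of all 10 libraries were fitted with group as the factor in edgeR 4.0.16 (R 4.3.3) with TMM (factors 0.977 to 1.037), filterByExpr and the quasi-likelihood test. Adjusted p is by Benjamini-Hochberg. The common biological coefficient of variation was 0.0682. GC trends were removed as a loess offset per library (span 0.4). With 2 libraries against 2, a two-sided exact permutation test cannot fall below 0.333, and significance comes from variance pooled over genes. The libraries of a group were distinct beyond sampling noise (chi-square per gene of 6.63 in PA and 16 in PA+NTP), and each counted as 1 sample.

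Named genes passed in the full fit and with each of the 4 PA and PA+NTP libraries left out (log2 fold change within 1.5 times), were protein-coding and shared at most 20% of their 31-base sequences. They are the 12 largest retained rises and falls at an FPKM of at least 1, the 6 most abundant retained genes in each direction, up to 4 genes in each of 49 lists, the 3 most abundant in each direction that passed without GC adjustment only, and Ppargc1b, Ogg1, Cox7c and Cox8a, which the study names, whatever their values. Other genes in the text were picked from the lists or after their values were seen. On data simulated for PA+NTP against PA over 13907 genes, 17, 43, 49 and 50 of 50 genes changed 1.5-, 2-, 3- and 4-fold were recovered, with 9 false calls. The fold threshold of 1.5 itself limits the recovery of genes changed 1.5-fold. A planted GC trend gave 416 false calls, and 5 after removal. That trend was linear in GC content and held no GC-linked effect of treatment. Its removal therefore does not show whether GC-linked calls in the real data are false. Floors cover counting error only.

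Alternatives were DESeq2 1.42.0, limma 3.58.1 on log2(FPKM + 1) and log2(FPKM + 0.1), other scalings and filters, thinning, NOISeq's rule, a length trend, a replicate block and leaving out each library. DESeq2 for the difference between PA and LA was added after the data were seen. Some genes that the naming rule gave are not reported here.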

Additional observations from a re-analysis of the deposited data

How the results depend on the processing

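Counts of genes higher and lower with NTP under PA (1232 and 721) became 482 and 373 with the GC trend removed, 496 and 380 with it removed together with a replicate block, 3060 and 3246 on adjusted p alone, 2 and 6 by the NOISeq rule at a probability of 0.95, and 297 and 109 at 0.8. Limma gave 896 higher and 296 lower genes (75.2% higher) on log2(FPKM + 1) and 1489 and 506 (74.6% higher) on log2(FPKM + 0.1). With the GC trend removed, adjusted p alone gave 1447 and 2422. Leaving out each library in turn gave 1077 to 1216 higher and 712 to 856 lower genes, and 363 to 470 and 316 to 452 with the trend removed. The replicate number of the titles as a block gave 1218 and 738 genes, and that of the files 1202 and 736. Same-numbered deviations correlated at 0.033, so the numbers were not taken as pairing, and the block without GC removal changed no call among the named genes. For the difference between PA and LA (0 genes), edgeR without a filter called 41 and DESeq2 5. It called 5 without the second PA library and 2 without the second PA+NTP library, and 0 to 5 over all omissions. With the trend removed the values were 29 without a filter, 1 by DESeq2, and 0 to 3 over the omissions, the 3 without the second PA library. Of the 112 named genes, 51 lost their call with the GC trend removed, 5 under library-size scaling and 1 in DESeq2, and none reversed. The first PA library, at 13142588 counts, sets the depth for low genes.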
